A study of Homo sapiens with 15 samples.

Results

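The interferon regulatory factors described here are the 8 genes *IRF1*, *IRF2*, *IRF3*, *IRF4*, *IRF5*, *IRF7*, *IRF8* and *IRF9*, taken by exact gene symbol from a count table of 60286 genes. All 8 had enough counts to enter the test, as did 17198 genes of the whole table. The RNA came from THP-1, a human monocytic leukaemia cell line, incubated with bacterial extracellular vesicles (BEVs) or with PBS. The methods of the study give 6 h of incubation, whereas the labels give Day 0 for every library. The control cells received PBS (NC in the labels), 2 groups received 1 μg/mL of *E. coli* (DH5a) BEVs and 2 groups received 10 μg/mL of *S. aureus* BEVs. BEVs of each species were isolated by ultracentrifugation (UC, groups EUC and SUC) or by precipitation with ε-poly-L-lysine (PL, groups EPL and SPL). All groups are of the same wild-type line, so they stand for 1 leukaemia line and not for monocytes of donors. Species and dose change together, so the effects of the species and of the dose cannot be told apart.

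There were 15 libraries, 3 per group, with 14399421 to 16637345 reads counted on genes (median 15831655). The methods of the study say that BEVs were added to each well and that the experiments were run in triplicate for each group. They do not say whether the triplicates were independent cultures, and no label says so. The p-values therefore measure the spread between these libraries, which may be technical. Of 10 monocytic marker genes, 10 had a mean of at least 1 CPM (normalised read count scaled to the size of the library), with a summed level of 2733 to 3771 CPM over the libraries. *ELANE* was the largest part of this sum in PBS cells (mean 1555 CPM), whereas *CD14* was at 3.77 CPM. The sum hides members that moved in opposite directions, as *SPI1* rose and *CD33* fell in every BEV group. *CD3D* of T cells and *HBA1* and *HBB* of erythroid cells had no count in any library, and 0 of 4 T cell, 0 of 3 epithelial, 1 of 3 fibroblast (*COL1A1*) and 0 of 3 erythroid markers reached 1 CPM. The summed fibroblast markers were at 0.640 to 0.882 CPM in PBS cells and at 1.65 to 5.18 CPM with BEVs. The part of these markers in the results was not tested. EUC replicate 3, EPL replicate 1 and SUC replicate 3 stood apart from the rest of their groups. The deviation of their genes from the group mean correlated with log2 transcript length at -0.586, -0.568 and -0.592 across 9807 genes, against -0.333 to 0.560 in the other BEV libraries and -0.329 to 0.377 in PBS cells. Genes are not independent replicates. Several results are given below with and without these 3 libraries, whereas the ratios between members and the shares of the family are given with all libraries only.

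Interferon regulatory factors (IRFs) are transcription factors that share a DNA-binding domain and recognise GAAA repeats in the promoters of interferon genes and of interferon-stimulated genes. IRF3, IRF5 and IRF7 wait in the cytoplasm, are phosphorylated by kinases downstream of Toll-like receptors and nucleic acid sensors, and then switch on interferon and cytokine genes. IRF9 is the DNA-binding subunit of ISGF3, the complex with STAT2 that forms when a cell senses type I interferon. IRF1 is an activator induced by interferon and inflammatory signals, IRF2 binds the same sites and can oppose it, and IRF4 and IRF8 are lineage factors of blood cells, IRF8 being needed for the monocyte lineage. Counts of RNA measure the level of the transcripts and not phosphorylation or movement into the nucleus.

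The 8 genes are spread over 8 chromosomes (hg38, GENCODE release 44). *IRF1* lies on the minus strand at chr5:132440440-132508719, *IRF2* on the minus strand at chr4:184385702-184474558, *IRF3* on the minus strand at chr19:49659569-49665875 and *IRF4* on the plus strand at chr6:391739-411443. *IRF5* lies on the plus strand at chr7:128937457-128950038, *IRF7* on the minus strand at chr11:612553-615983, *IRF8* on the plus strand at chr16:85899116-85922606 and *IRF9* on the plus strand at chr14:24161234-24168043. For 5 of the 8 genes (*IRF1*, *IRF4*, *IRF5*, *IRF8* and *IRF9*) the RefSeq promoter table (GRCh38.p14) held at least 1 start site. The 250 bases before the start were searched on both strands for the interferon-stimulated response element (GAAA, any 2 bases, GAAA), the STAT site (GAS) TTCNNNGAA and the NF-kappa B motif. These windows are shown for *IRF1* and *IRF9*, both of which rose with every BEV preparation, because theirs were the windows in which a match was found. Matches are in capitals. The *IRF1* window (chr5:132490774-132491023, minus strand) held a GAS match that ended 115 bases before the start and an NF-kappa B match 40 bases before it, and the *IRF9* window (chr14:24161015-24161264, plus strand) held a GAS match 54 bases before it.

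IRF1: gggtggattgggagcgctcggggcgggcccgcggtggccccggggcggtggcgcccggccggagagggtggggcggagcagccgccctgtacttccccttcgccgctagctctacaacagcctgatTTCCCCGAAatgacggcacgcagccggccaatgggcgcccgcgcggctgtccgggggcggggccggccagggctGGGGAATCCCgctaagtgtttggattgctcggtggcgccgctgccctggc

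IRF9: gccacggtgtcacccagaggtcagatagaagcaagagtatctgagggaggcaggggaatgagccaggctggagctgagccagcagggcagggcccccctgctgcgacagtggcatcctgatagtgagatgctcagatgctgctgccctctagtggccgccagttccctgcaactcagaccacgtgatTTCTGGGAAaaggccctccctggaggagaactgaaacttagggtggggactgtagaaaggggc

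Of 35116 promoter windows of this length, 3.02% held the interferon-stimulated response element, 6.57% the GAS motif and 5.21% the NF-kappa B motif. The windows of *IRF4*, *IRF5* and *IRF8* held none of these letters, which says nothing of other starts or of distant sites. The *IRF8* windows (chr16:85902580-85902829 and chr16:85902765-85903014, plus strand) lay inside the annotated gene, which starts at 85899116. The bases before that start were therefore not searched. The windows of *IRF1* and *IRF5* also lay inside the annotated genes.

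The first question was how the factors that induce interferon genes responded to BEVs. *IRF7*, the factor that amplifies the interferon response, rose in all 4 BEV groups, *IRF5* rose in EUC, EPL and SPL cells, and *IRF3* did not pass the test in any group in the fit of all libraries. The level of *IRF7* was 35.6, 33.9 and 39.2 CPM in the 3 PBS libraries. It was 265.6, 281.1 and 339.5 CPM in EUC and 342.2, 256.0 and 226.3 CPM in EPL cells. It was 206.8, 175.0 and 230.3 CPM in SUC and 234.7, 235.3 and 207.0 CPM in SPL cells. All 12 BEV libraries were above all 3 PBS libraries, and EUC replicate 3, EPL replicate 1 and SUC replicate 3 were the highest of their groups. The fold change against PBS was 8.15, 7.58, 5.63 and 6.23 in EUC, EPL, SUC and SPL cells. On the log2 scale this was 3.03 ± 0.15 (SE), 2.92 ± 0.15, 2.49 ± 0.15 and 2.64 ± 0.15, with adjusted p-values from edgeR of 3.96e-11, 6.33e-11, 6.45e-10 and 2.86e-10. Without the 3 libraries that stand apart, the *IRF7* change was 2.91, 2.74, 2.40 and 2.64. In bulk RNA, more cells with a transcript and more transcript per cell cannot be told apart.

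*IRF3*, whose protein is present before stimulation and starts the first wave of interferon beta, was at 82.5, 85.5 and 96.0 CPM in PBS cells. It was at 59.0, 65.4 and 87.1 CPM in EUC, at 80.0, 65.3 and 58.6 CPM in EPL, at 69.4, 72.8 and 83.8 CPM in SUC and at 74.0, 80.2 and 74.7 CPM in SPL cells. The EPL and SPL libraries were all below the PBS libraries, whereas EUC replicate 3 and SUC replicate 3 reached into the PBS range. The *IRF3* log2 fold change was -0.32 ± 0.13, -0.37 ± 0.14, -0.22 ± 0.13 and -0.21 ± 0.13, with adjusted p-values of 0.0686, 0.0363, 0.232 and 0.267 (edgeR). The highest BEV libraries of EUC, EPL and SUC cells were those that stand apart by transcript length. Without these 3 libraries *IRF3* fell by 0.50 in EUC (adjusted p = 5.13e-06), by 0.51 in EPL (4.82e-06) and by 0.30 in SUC cells (0.00236), and was at -0.20 in SPL cells (0.0156). That fit left fewer libraries in EUC, EPL and SUC cells than in PBS cells. It kept NC replicate 3, the PBS library with the highest *IRF3* (96.0 CPM), whose correlation with log2 transcript length was -0.329. The libraries were thus not left out evenly between BEV and PBS cells. Leaving out EUC replicate 3 alone gave -0.50 in EUC cells, and leaving out EPL replicate 1 alone gave -0.51 in EPL cells, both past the threshold. *IRF3* also passed in EPL cells without EUC replicate 3 and without a filter on low counts, and in SPL cells in the fit of SPL and PBS libraries alone (-0.20). In the annotation, 14.2% of the main *IRF3* transcript is shared with *BCL2L12* on the opposite strand. *BCL2L12* had 509 to 971 counts and was also highest in EUC replicate 3, EPL replicate 1 and SUC replicate 3. The sources used here do not give the strand setting of the counting, so reads of the shared bases cannot be told apart.

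*IRF5*, which acts downstream of MyD88 to induce inflammatory cytokines, was at 180.7, 182.7 and 187.4 CPM in PBS cells. It was at 293.9, 271.2 and 281.2 CPM in EUC and at 330.6, 259.5 and 231.3 CPM in EPL cells, and at 234.1, 219.0 and 234.9 CPM in SUC and 263.0, 264.7 and 259.6 CPM in SPL cells. Every BEV library was above the PBS libraries, and EPL replicate 1 was the highest of all. *IRF5* rose 1.54-fold in EUC (log2 0.62 ± 0.10, adjusted p = 7.97e-05), 1.49-fold in EPL (0.58 ± 0.10, 0.000172) and 1.43-fold in SPL cells (0.52 ± 0.10, 0.000601). Over 21 other fits, which include those without EPL replicate 1, the log2 change in EPL cells ran from 0.42 to 0.68 and passed in each. In SUC cells the log2 change of 0.32 ± 0.10 had an adjusted p of 0.0212 and did not pass. It passed without the 3 libraries that stand apart (0.31, adjusted p = 0.00025), without EPL replicate 1 or without EPL replicate 3, in the fit of SUC and PBS libraries alone and without a filter on low counts.

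The ratio of the *IRF7* count to the *IRF3* count within a library, not corrected for transcript length, was higher in every BEV library than in every PBS library. The *IRF7* count was 0.396 to 0.431 times the *IRF3* count in PBS cells, 3.90 to 4.50 times in EUC, 3.86 to 4.28 times in EPL, 2.40 to 2.98 times in SUC and 2.77 to 3.17 times in SPL cells. The 3 sets of libraries (PBS, *S. aureus* and *E. coli*) did not overlap in this ratio. In a two-sided exact permutation test the log2 ratio was 3.05 higher in the 12 BEV than in the 3 PBS libraries (p = 0.0022, adjusted p = 0.0033) and 0.54 higher in the 6 *E. coli* than in the 6 *S. aureus* libraries (p = 0.0022, adjusted p = 0.0033), which are the smallest p-values the arrangements allow. This ratio and those of *IRF1* to *IRF2* and of *IRF5* to *IRF8* were chosen after seeing the data, and the adjustment is over the 6 tests made of them. The p-values of these 3 ratios therefore describe differences already seen and are not independent support. The permutations also treat libraries of different BEV groups as alike.

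**Figure D1:**
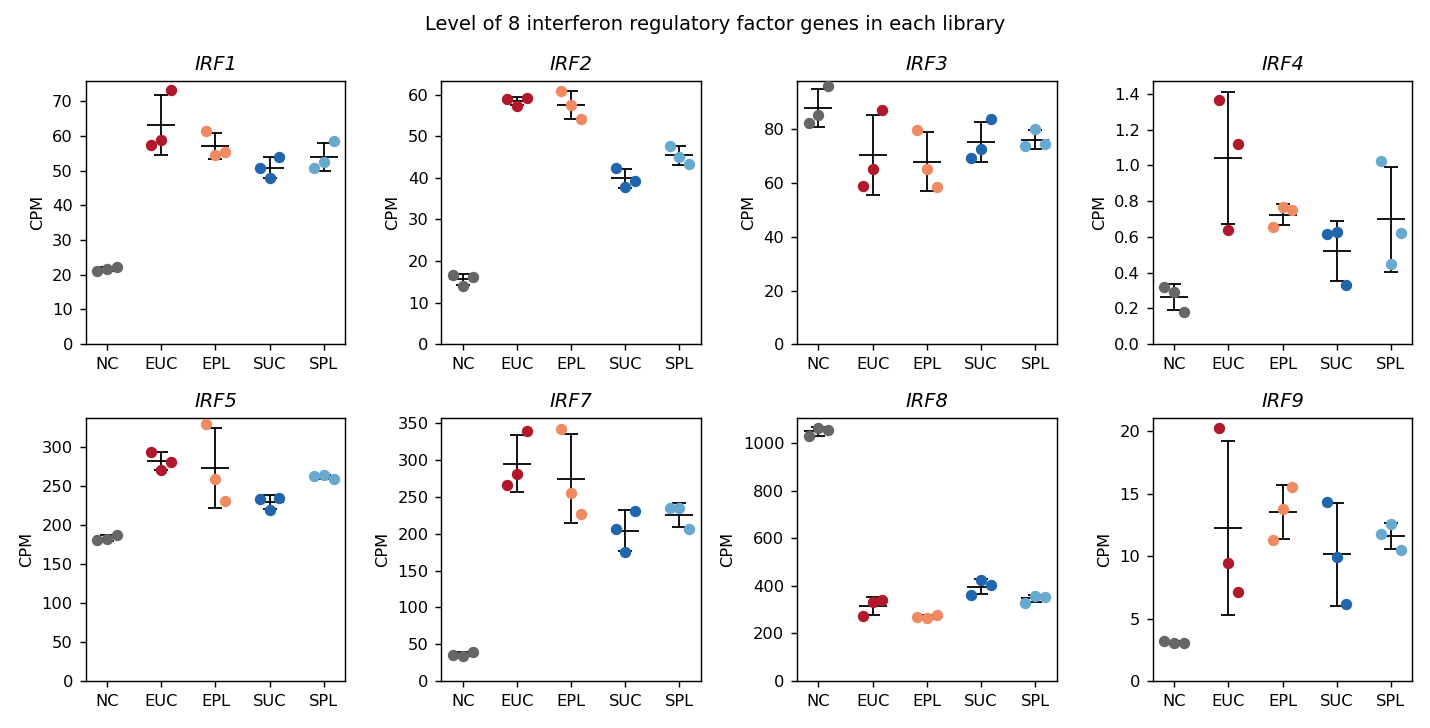
The level of each of the 8 genes in CPM (y axis, from 0) is plotted for the 5 groups (x axis), with a point for each of the 3 libraries in replicate order and a bar for the mean with its SD. *IRF8* is higher in PBS cells than in every BEV group, whereas *IRF1*, *IRF2*, *IRF4*, *IRF5*, *IRF7* and *IRF9* are lowest there.

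The activator *IRF1* and its counterpart *IRF2* both rose in every BEV group, *IRF1* by 2.35-fold to 2.91-fold and *IRF2* by 2.56-fold to 3.75-fold. *IRF1* was at 21.0, 21.8 and 22.2 CPM in PBS cells. It was at 57.3, 58.8 and 73.2 CPM in EUC, at 61.4, 54.5 and 55.4 CPM in EPL, at 50.7, 47.8 and 54.0 CPM in SUC and at 50.7, 52.5 and 58.5 CPM in SPL cells. No BEV library overlapped with the PBS libraries. The *IRF1* log2 fold change was 1.54 ± 0.10, 1.40 ± 0.10, 1.23 ± 0.10 and 1.31 ± 0.10 in EUC, EPL, SUC and SPL cells, with adjusted p-values of 1.77e-09, 6.91e-09, 5.60e-08 and 2.01e-08. In the annotation 16.3% of the main *IRF1* transcript is shared with the opposite-strand *IRF1-AS1*, which had 63 to 243 counts and rose in EUC (log2 1.23), EPL (1.53) and SPL cells (1.37). Reads of the 2 genes cannot be told apart in the shared bases. Over the whole gene *IRF1* had 328 to 1113 counts.

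*IRF2* was at 16.6, 14.1 and 16.1 CPM in PBS cells. It was at 59.0, 57.3 and 59.1 CPM in EUC and 61.0, 57.5 and 54.3 CPM in EPL cells, and at 42.4, 37.9 and 39.3 CPM in SUC and 47.8, 45.1 and 43.3 CPM in SPL cells. All BEV libraries were above PBS, and the *E. coli* libraries were all above the *S. aureus* libraries. The *IRF2* log2 fold change was 1.91 ± 0.09, 1.89 ± 0.09, 1.36 ± 0.09 and 1.54 ± 0.09, with adjusted p-values of 1.50e-11, 1.85e-11, 2.23e-09 and 3.40e-10. The *IRF1* count was 1.27 to 1.55 times the *IRF2* count in PBS cells, 0.971 to 1.24 times in EUC, 0.948 to 1.02 times in EPL, 1.20 to 1.37 times in SUC and 1.06 to 1.35 times in SPL cells. The *E. coli* libraries were below the PBS libraries in this ratio, and the *S. aureus* libraries overlapped with both. The log2 ratio was -0.31 in BEV against PBS libraries (exact permutation p = 0.0154, adjusted p = 0.0173) and -0.25 in *E. coli* against *S. aureus* libraries (p = 0.0173, adjusted p = 0.0173).

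*IRF8* was the member that fell. Together with PU.1 it drives genes of the monocyte lineage, and in PBS cells it was at 1029.6, 1063 and 1057 CPM. It was at 271.7, 330.6 and 340.6 CPM in EUC, at 267.0, 264.9 and 279.1 CPM in EPL, at 360.8, 424.6 and 404.1 CPM in SUC and at 329.6, 357.7 and 353.5 CPM in SPL cells. The BEV and PBS libraries did not overlap, and the *E. coli* groups were the lowest on average. *IRF8* was 3.34-fold lower in EUC (log2 -1.74 ± 0.09, adjusted p = 5.91e-11), 3.88-fold lower in EPL (-1.96 ± 0.09, 1.49e-11), 2.65-fold lower in SUC (-1.40 ± 0.09, 1.43e-09) and 3.03-fold lower in SPL cells (-1.60 ± 0.09, 2.42e-10). Without the 3 libraries that stand apart the *IRF8* changes were -1.80, -1.95, -1.41 and -1.59. The ratio of the *IRF5* count to the *IRF8* count was 0.172 to 0.177 in PBS cells and 0.516 to 0.649 in SUC, 0.734 to 0.798 in SPL, 0.820 to 1.08 in EUC and 0.829 to 1.24 in EPL cells. The log2 ratio was 2.18 higher in BEV than in PBS libraries and 0.52 higher in *E. coli* than in *S. aureus* libraries (exact permutation p = 0.0022, adjusted p = 0.0033 for each).

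*IRF4*, the factor closest to IRF8 in the family and better known from lymphocytes and dendritic cells, was scarcely detected. Its counts were 5, 5 and 3 in PBS, 21, 10 and 17 in EUC, 10, 12 and 12 in EPL, 9, 10 and 5 in SUC and 16, 7 and 9 in SPL libraries. In CPM this was 0.320, 0.294 and 0.179 in PBS cells and 0.330 to 1.37 over the BEV libraries, so the groups did not overlap, but the lowest BEV library, SUC replicate 3, had as few counts as a PBS library. *IRF4* rose in EUC cells (log2 1.95 ± 0.45, adjusted p = 0.00224). This call was lost without NC replicate 3 (log2 1.74), without EUC replicate 1 (1.71) and in the fit of EUC and PBS libraries alone (1.95), where the highest adjusted p was 0.0142. The log2 change was 1.43 ± 0.47 in EPL (adjusted p = 0.0234), 0.97 ± 0.50 in SUC (0.158) and 1.38 ± 0.48 in SPL cells (0.0337), none of which passed.

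*IRF9*, the DNA-binding subunit of ISGF3, rose in all 4 groups from a low level. It was at 3.20, 3.0 and 3.04 CPM in PBS cells. It was at 20.2, 9.48 and 7.10 CPM in EUC, at 11.3, 13.8 and 15.5 CPM in EPL, at 14.3, 9.93 and 6.14 CPM in SUC and at 11.8, 12.6 and 10.5 CPM in SPL cells. All BEV libraries were above PBS, but they spread widely within EUC and SUC, where replicate 1 was the highest and replicate 3, which stands apart by transcript length, the lowest. The *IRF9* log2 fold change was 1.99 ± 0.35, 2.13 ± 0.35, 1.72 ± 0.35 and 1.91 ± 0.35 (3.98-fold, 4.39-fold, 3.28-fold and 3.76-fold), with adjusted p-values of 0.000175, 8.69e-05, 0.00112 and 0.000344. Without the 3 libraries that stand apart it was 2.26, 2.25, 1.98 and 1.92. The *IRF9* count itself is uncertain, because 93.1% of its main transcript (1513 of 1626 bases) is shared with the same-strand gene ENSG00000259529, which had 5 to 28 counts. The sources used here do not say how reads that lie in both genes were counted.

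**Figure D2:**
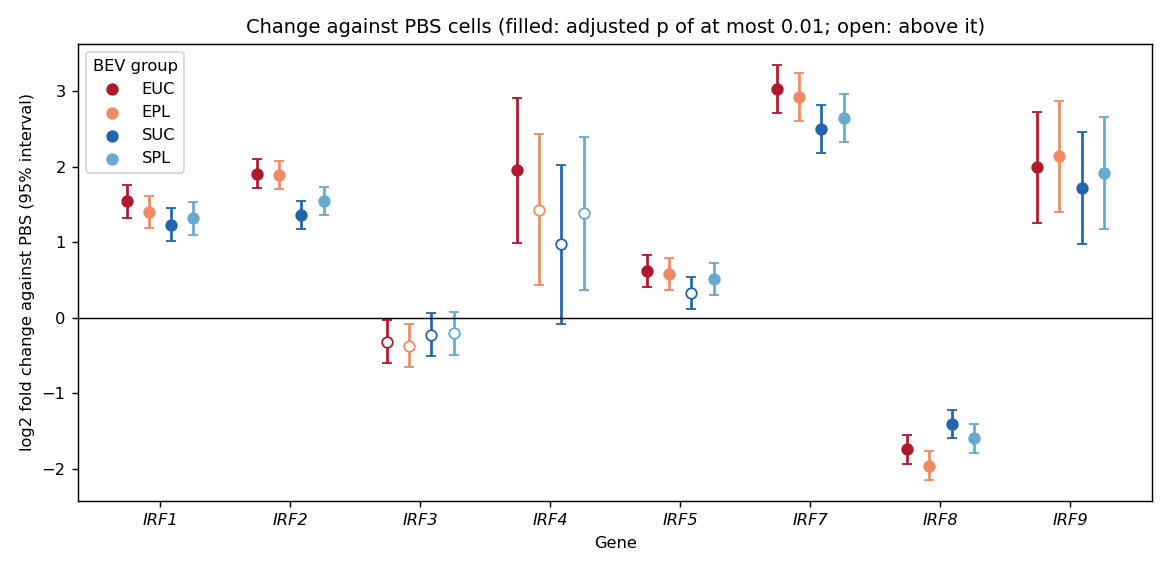
The log2 fold change against PBS (y axis) is plotted with its 95% interval for the 8 genes (x axis) in EUC, EPL, SUC and SPL cells, with filled points for an adjusted p of at most 0.01 and open points above it. *IRF7* has the highest points, from 2.49 to 3.03, and *IRF8* the only filled points below 0, from -1.96 to -1.40.

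Counted over the family, 6 members rose and 1 fell in EUC cells, 5 rose and 1 fell in EPL, 4 rose and 1 fell in SUC, and 5 rose and 1 fell in SPL cells, at an adjusted p of at most 0.01. Of all tested genes, 16.5% rose and 14.0% fell in EUC, 16.0% and 13.2% in EPL, 12.4% and 9.15% in SUC and 13.3% and 10.6% in SPL cells. With the second limit of the study, a log2 change of at least 1 in size, 5 members were higher in EUC and 4 in each of EPL, SUC and SPL cells, and 1 (*IRF8*) was lower in each. The shares of all genes under that limit were 9.43% higher and 5.75% lower in EUC, 9.38% and 5.15% in EPL, 6.82% and 3.06% in SUC and 7.76% and 3.70% in SPL cells. The median log2 change of the 8 members was 1.73, 1.42, 1.10 and 1.35 in the 4 groups, and that of all tested genes lay between -0.01 and 0.01. All 4 comparisons share the same 3 PBS libraries, so they are not independent of each other.

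To compare the members with each other, CPM was divided by the length of the main (MANE Select) transcript. On this scale, in CPM per kb, PBS cells held mostly *IRF8*, at 393.5 ± 6.6 (SD, n = 3) or 72.1% of the summed level of the 8 genes. It was followed by *IRF5* (63.3 CPM per kb, 11.6%), *IRF3* (55.2, 10.1%) and *IRF7* (18.8, 3.45%). *IRF2* (6.90) and *IRF1* (6.09) overlapped in PBS libraries, and *IRF9* (1.89) and *IRF4* (0.0497) were below them. With BEVs the share of *IRF7* was 33.0%, 32.9%, 25.3% and 27.4% in EUC, EPL, SUC and SPL cells, and that of *IRF8* was 25.4%, 23.8%, 35.5% and 30.4%. *IRF7* was thus the first in the order in EUC and EPL cells and *IRF8* in SUC and SPL cells, without overlap of their libraries. In EPL cells *IRF8* and *IRF5* (21.8%) overlapped. Below these came *IRF3*, *IRF2*, *IRF1*, *IRF9* and *IRF4*, in this order in each BEV group, and neighbours did not overlap. The level per kb, share and place of *IRF9* are uncertain in all groups, PBS cells included. Of its main transcript 93.1% is shared with ENSG00000259529, and how reads in both genes were counted is not known. The order at the top depended on the length used. With the union of all annotated exons *IRF7* was first in all 4 BEV groups (40.5% to 49.6%) and *IRF8* still first in PBS cells (66.5%). The summed level of the 8 genes was 545.8 ± 11.5 CPM per kb in PBS cells and 464.3 ± 38.4, 431.3 ± 55.2, 419.4 ± 19.0 and 428.3 ± 11.2 in EUC, EPL, SUC and SPL cells.

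**Figure D3:**
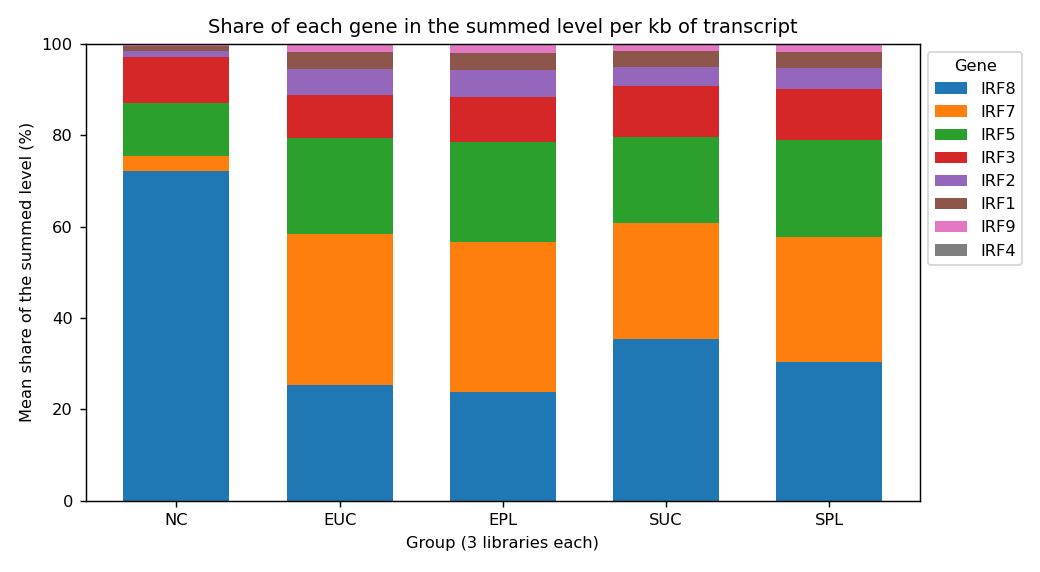
Stacked bars give the mean share (y axis, percent) of each gene in the summed level per kb of MANE Select transcript for the 5 groups (x axis, 3 libraries each). *IRF8* takes 72.1% in PBS cells and 23.8% to 35.5% with BEVs, whereas *IRF7* goes from 3.45% to between 25.3% and 33.0%.

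The second question was whether the BEVs of the 2 species, at their different doses, gave different levels. Between the mean of the *E. coli* groups and the mean of the *S. aureus* groups, 1 member was higher with *E. coli* (*IRF2*) and 1 lower (*IRF8*), against 2.87% of all tested genes higher and 1.00% lower. *IRF2* was at 54.3 to 61.0 CPM in the 6 *E. coli* and at 37.9 to 47.8 CPM in the 6 *S. aureus* libraries, which did not overlap. The log2 difference of *IRF2* was 0.45 ± 0.06 (95% interval 0.32 to 0.57, adjusted p = 0.000114, edgeR). *IRF8* was at 264.9 to 340.6 CPM with *E. coli* and at 329.6 to 424.6 CPM with *S. aureus* BEVs, with overlap, and its log2 difference was -0.35 ± 0.06 (-0.48 to -0.22, adjusted p = 0.00166). No member reached a log2 difference of 1, against 0.663% and 0.0233% of all tested genes higher and lower.

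*IRF7* was at 226.3 to 342.2 CPM with *E. coli* and at 175.0 to 235.3 CPM with *S. aureus* BEVs. Its log2 difference of 0.41 ± 0.10 (0.20 to 0.62) had an adjusted p of 0.0156 and did not pass. It passed with DESeq2 (0.41), without EPL replicate 3 (0.47), without SUC replicate 3 (0.46), without a filter on low counts (0.40) and without the 3 libraries that stand apart (0.30, adjusted p = 0.000395). Leaving out the same 3 libraries changed the call of *IRF3*, whose difference was -0.13 ± 0.10 (-0.33 to 0.07, adjusted p = 0.578) with all libraries and -0.25 without them (0.00348), so 4 members passed without them. The other members did not pass: the difference was 0.20 (0.05 to 0.35) for *IRF1*, 0.51 (-0.11 to 1.13) for *IRF4*, 0.18 (0.03 to 0.33) for *IRF5* and 0.25 (-0.21 to 0.71) for *IRF9*, with adjusted p-values of 0.120, 0.426, 0.176 and 0.667.

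**Figure D4:**
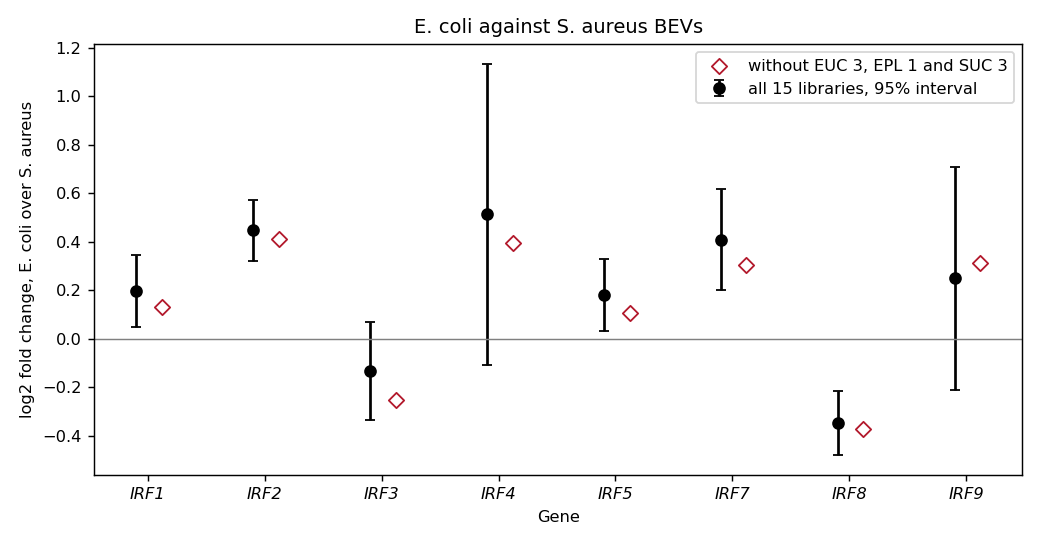
The log2 difference between *E. coli* and *S. aureus* BEV groups (y axis) is plotted for the 8 genes (x axis), with all 15 libraries and a 95% interval (black) and without EUC replicate 3, EPL replicate 1 and SUC replicate 3 (open diamonds, no interval drawn). *IRF2* at 0.45 and *IRF8* at -0.35 pass the test in both fits, whereas *IRF3* and *IRF7* pass only in the second of the 2 fits shown.

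The third question was whether the isolation method changed the response. Between EPL and EUC cells 0 members passed, and 0.00% of all tested genes did. Between SPL and SUC cells 0 members passed, and 0.00581% of all genes (1 gene) did. The difference between the methods was not found to depend on the species for any member, with 0.00% of all genes past the threshold. At an unadjusted p below 0.05 there were 1 member for EPL against EUC (*IRF8*), 2 for SPL against SUC (*IRF2* and *IRF8*) and 0 for the difference between species, and DESeq2 passed 0 members in each. These 2 genes are named because of their values. *IRF8* was at -0.22 in PL against UC cells with *E. coli* (95% interval -0.40 to -0.03, adjusted p = 0.947) and at -0.19 with *S. aureus* BEVs (-0.38 to -0.01, adjusted p = 0.828). *IRF2* was at -0.02 (-0.20 to 0.15) with *E. coli* and at 0.19 (0.01 to 0.37) with *S. aureus* BEVs. For *IRF7* the intervals were -0.40 to 0.19 and -0.15 to 0.44, and for *IRF3* -0.34 to 0.23 and -0.27 to 0.30. The intervals of *IRF4* (-1.35 to 0.32 and -0.51 to 1.33) and *IRF9* (-0.50 to 0.78 and -0.46 to 0.85) were the widest.

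The genes around the family were described from lists, each by the number of tested genes that passed. The lists were chosen with earlier results of these data known, so the counts describe these genes and are not independent support. Of all tested genes, 12.4% to 16.5% rose and 9.15% to 14.0% fell in the 4 BEV groups against PBS. Between species 2.87% were higher and 1.00% lower with *E. coli* BEVs. The median log2 change of all tested genes against PBS lay between -0.01 and 0.01. Of 17 receptors, adaptors and kinases that activate IRF3, IRF5 and IRF7, 15 were tested, and 8 rose and 4 fell in EUC, 9 and 4 in EPL, 8 and 3 in SUC and 8 and 4 in SPL cells. *IKBKE*, which encodes the kinase IKKε that phosphorylates IRF3 and IRF7, was at 47.2 ± 3.4 CPM (SD, n = 3) in PBS cells and rose to a mean of 184.6 to 217.4 CPM, with log2 changes of 1.97 to 2.20. *MYD88*, the adaptor upstream of IRF5 and IRF7, rose from 43.2 ± 1.0 to between 141.2 and 163.7 CPM (log2 1.71 to 1.92), and *TICAM1*, the TRIF adaptor upstream of IRF3, from 17.9 ± 0.9 to between 45.0 and 55.7 CPM (1.33 to 1.63). *STING1*, an adaptor of cytosolic DNA sensing that recruits TBK1 to IRF3, fell from 395.0 ± 13.3 to between 95.8 and 150.2 CPM, with log2 changes of -2.04, -2.02, -1.40 and -1.51 in EUC, EPL, SUC and SPL cells. Between species *STING1* was lower with *E. coli* BEVs (-0.58, adjusted p = 3.18e-05). The list median was 0.52, 0.58, 0.40 and 0.49 in the 4 groups. In *E. coli* against *S. aureus* cells 1 gene of the list was higher and 2 were lower.

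Of 10 interferon genes only *IFNB1*, which IRF3 and IRF7 switch on, was tested. It had 5 counts over the 3 PBS libraries and 34, 29, 31 and 11 counts in EUC, EPL, SUC and SPL libraries. Its log2 changes of 2.77 ± 0.85, 2.52 ± 0.87, 2.64 ± 0.86 and 1.18 ± 1.01 did not pass (adjusted p = 0.0147, 0.0287, 0.0269 and 0.413). *IFNL1*, which had too few counts for the test, had 0 counts over the PBS libraries. It had 6, 10, 16 and 11 counts in EUC, EPL, SUC and SPL libraries. Of 9 interferon receptors and JAK-STAT partners of IRF9, 7, 8, 6 and 8 rose in the 4 groups and 0 fell. *STAT2*, a subunit of ISGF3, rose from 49.5 ± 1.2 to between 210.7 and 326.4 CPM (log2 2.63, 2.72, 2.09 and 2.37). *IFNGR2* and *IFNGR1*, the chains of the interferon gamma receptor, rose with log2 changes of 1.65 to 1.79 and 0.70 to 1.08. *STAT2* (0.45, adjusted p = 0.000649) and *IFNGR1* (0.37, 0.000178) were higher with *E. coli* than with *S. aureus* BEVs. The median of this list was 0.57, 0.61, 0.52 and 0.46.

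All 12 listed targets of ISGF3 rose in all 4 groups, and 9 of them were higher with *E. coli* than with *S. aureus* BEVs. *IFIT1*, which binds foreign RNA, was at 4.83 ± 0.68 CPM in PBS cells and at 209.2 ± 34.6, 194.9 ± 2.0, 124.7 ± 9.2 and 145.4 ± 7.2 CPM in EUC, EPL, SUC and SPL cells. *IFI44* rose with log2 changes of 5.25, 5.23, 4.59 and 4.77, *IFI44L* with 5.05, 5.30, 4.54 and 4.70 and *IFIT3* with 4.60, 4.55, 3.89 and 4.19. The list median was 3.87, 3.89, 3.40 and 3.65. Of 12 listed targets of IRF1 or IRF8, 9, 9, 8 and 9 rose and 0 fell, with a median of 5.68, 5.64, 5.01 and 5.15. The chemokine gene *CXCL10* had 3 counts over the PBS libraries and a mean of 80.3 to 117.5 CPM with BEVs, and *IDO1* and *CXCL9* had 0 counts there and means of 1.27 to 2.77 and 0.855 to 1.36 CPM with BEVs. *IL12B*, a cytokine subunit gene, was at 0.120 CPM in PBS cells, at 36.3 ± 8.9 in EUC and 19.8 ± 2.1 in EPL cells and at 5.38 ± 1.39 in SUC and 6.85 ± 1.80 in SPL cells, a log2 difference between species of 2.15 ± 0.15 (adjusted p = 3.88e-07). *NLRC5*, *PSMB8* and *PSMB9*, the 3 listed genes that did not pass in any of the 4 groups, had log2 changes of -0.05 to 0.56.

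Of 7 listed DNA-binding partners of IRF4 and IRF8, 4 rose and 0 fell in each group. *SPI1*, which encodes PU.1, rose from 470.6 ± 15.9 to between 960.3 and 1197.9 CPM (log2 1.35, 1.23, 1.03 and 1.09) in the same libraries in which *IRF8* fell. *BATF2* rose with log2 changes of 2.95, 2.91, 2.38 and 2.73, *JUNB* with 1.48, 1.30, 1.35 and 1.32 and *ETV6* with 1.12, 1.20, 0.87 and 1.09. *BATF* was at 21.4 ± 0.7 CPM in PBS cells and had log2 changes of 0.46, 0.04, -0.03 and -0.14, none of which passed. The list median was 1.12, 1.20, 0.87 and 1.09, and 1 gene (*BATF2*, 0.38) was higher with *E. coli* BEVs. Of 7 listed negative regulators of IRF proteins, 6 rose and 0 fell in each group, with a median of 1.44, 1.28, 1.00 and 1.16, and 2 were higher with *E. coli* BEVs. *TNFAIP3*, which encodes the ubiquitin editor A20, rose from 14.8 ± 2.0 to between 499.6 and 579.4 CPM, *USP18*, which dampens interferon receptor signalling and is also among the ISGF3 targets, with log2 changes of 3.36 to 3.84, *PELI1*, a ubiquitin ligase gene, with 1.45 to 1.92 and *TRIM21*, a ubiquitin ligase gene as well, with 1.00 to 1.35. Of the 3 genes of IRF2-binding proteins, 0 rose, and 1, 2, 0 and 1 fell in EUC, EPL, SUC and SPL cells. *IRF2BP2* fell by 0.34 in EUC, by 0.33 in EPL and by 0.33 in SPL cells, and *IRF2BPL* by 0.50 in EPL cells.

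As a description, the protein-coding genes whose log2 CPM was most like that of each member over the 15 libraries were found among 9007 genes with a mean of at least 10 CPM. They were *NINJ1*, *ANXA2* and *UXS1* for *IRF1* (Pearson's r of 0.993 to 0.994), *GPAT3*, *ST3GAL2* and *GPR132* for *IRF2* (0.995 to 0.996) and, among others, *NINJ1* and *SLC16A3* for *IRF7* (0.997 to 0.998). For *IRF8* they were *CA2*, *MS4A3* and *PSAT1* (0.992 to 0.996), for *IRF5* *LPAR2*, *DTX2* and *ZYX* (0.970 to 0.980) and for *IRF9* *RNF213*, *C15orf39* and *B4GALNT1* (0.972 to 0.983). For *IRF3* they were *SNRNP25*, *OSGEP* and *PIH1D1* (0.964 to 0.970), and for *IRF4* *DLGAP4*, *FILIP1L* and *RHOQ* (0.868 to 0.904). The 15 points share their groups and depth, and the PBS libraries set much of r for any gene that changed with BEVs.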

How the data were processed

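The data are RNA-seq libraries of THP-1 cells, grouped by their titles in the deposited labels. The authors extracted RNA with Trizol, prepared libraries with a NEB kit, sequenced both ends on a NovaSeq instrument and aligned the reads to hg38. The submitters' processing notes name FastQC 0.11.5, HISAT2 2.1.0, StringTie 1.3.3b, featureCounts and DESeq 1.28.0, and the paper used DESeq2. The authors deposited whole-number read counts per Ensembl gene, not normalized. The annotation, the strand setting and the treatment of overlapping genes were not given in the sources used here.

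Here the counts were analysed with edgeR 4.0.16 in R 4.3.3. Of 60286 genes, 23219 without any count, filterByExpr kept 17198. Libraries were scaled by TMM, and 1 quasi-likelihood model (glmQLFit, glmQLFTest) of all 15 libraries without a block gave the 8 comparisons. Benjamini-Hochberg adjustment was made over all tested genes, and a gene passed at an adjusted p of at most 0.01. The fold limit of the study (log2 change of at least 1 in size) was a second rule. The SE is the log2 change divided by the square root of F. CPM uses TMM library sizes. Positions, MANE Select lengths and overlaps come from GENCODE release 44. The common biological coefficient of variation was 0.118. Scripts were tested on simulated data.

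Alternatives were RLE scaling, no filter on low counts, a replicate block, a fit of the compared groups alone, leaving out each library, DESeq2 1.42.0, an adjusted p of at most 0.05 and the fold limit. Leaving out EUC replicate 3, EPL replicate 1 and SUC replicate 3 together was chosen after seeing the data. All members are named, as are up to 4 genes of each list with the largest mean change against PBS, and *IFNB1*, *STAT2*, *SPI1* and *BATF* always. Some genes that this rule takes are not reported here. *IRF1-AS1*, *BCL2L12*, ENSG00000259529, *IFNL1*, the 3 genes of the IRF1 or IRF8 target list that did not pass, *IRF2BP2* and *IRF2BPL* were chosen after their values had been seen. The same holds for the markers *ELANE*, *CD14* and *CD33*. The members and lists were chosen with earlier results of these data known.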

Additional observations from a re-analysis of the deposited data

Results flagged for a closer look

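*IRF2* and *IRF8* are flagged because the test of the difference between *E. coli* and *S. aureus* BEVs itself passed for each. *IRF2* was higher with *E. coli* BEVs in 6 of 6 libraries than in every *S. aureus* library, with a log2 difference of 0.4468 that passed in 21 of 21 other fits (0.41 to 0.47, adjusted p up to 0.00075). *IRF8* was lower with *E. coli* BEVs, at -0.3475, and passed in 21 of 21 other fits (-0.39 to -0.30, adjusted p up to 0.00714), although libraries of the species overlapped. The *E. coli* BEVs were given at 1 μg/mL and the *S. aureus* BEVs at 10 μg/mL, so species and dose cannot be told apart.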

How the results depend on the processing

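Over the 8 members and 8 comparisons, 1440 of 1472 values under an alternative kept their side of the threshold, 8 lost the call, 24 gained it and 0 reversed a call. The direction changed in 26 values without a call, 9 for EPL against EUC, 5 for SPL against SUC, 11 for the difference of methods and 1 between species. The calls that moved were those of *IRF3*, *IRF4*, *IRF5* in SUC cells and *IRF7* between species, given in the report, and those that the fold limit removes. In the comparison of species, 4 members passed without the 3 libraries apart by transcript length and 0 with the fold limit. The counts over all tested genes moved by more than 1.5 times as follows. The fold limit left 2610, 2498, 1700 and 1972 genes for EUC, EPL, SUC and SPL against PBS and 118 between species. SPL against PBS passed 6668 genes with the compared groups alone and 6188 without the 3 libraries. The species comparison passed 1445 genes without the 3 libraries and 1169 at an adjusted p of at most 0.05. Without a filter on low counts, 5 genes passed for EPL against EUC, 18 for SPL against SUC and 9 for the difference of methods between species. SPL against SUC passed 1 gene in the main fit, 2 with the compared groups alone, 6 without the 3 libraries, 5 with DESeq2 and 3 with the limit on the adjusted p at 0.05, and the difference of methods passed 5 without the 3 libraries and 6 with DESeq2. Leaving out 1 library at a time gave 1 to 3 genes for SPL against SUC and 0 to 1 for the difference of methods. Stricter or looser limits and fewer tested genes or libraries are the construction of these alternatives, and no other cause was tested.

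With the replicate block, 2 genes passed for SPL against SUC and no count of members changed. No label says that the replicate numbers pair the samples. The correlation of deviations from the group mean between same-numbered libraries ran from -0.452 to 0.525. Between EUC and SUC it was 0.393, 0.05 and 0.525 for the same number, and -0.484 and -0.428 between replicates 1 and 3. Between EUC and EPL it was -0.452, 0.094 and -0.341 for the same number. Whether libraries of the same number share an order or a batch was not tested. *IRF4* (3 to 21 counts per library) is limited by depth.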
